A study of Mus musculus with 16 samples.

Results

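The transcripts of the collagen genes were followed in whole lung of 16 female mice of the tumour-prone inbred A/J strain. They were taken as all non-control probes whose gene name in the array files has the form Col, a number, a, a number. This gave 75 probes of 38 genes among 41174 probes and 27705 gene names, and each gene was read from its brightest probe. By known structure, 11 genes were fibrillar, 9 belonged to basement membranes and the multiplexins, 8 were fibril-associated and 10 were of other kinds.

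The mice formed 4 groups of 4, called biological replicates by the labels, and each lung was hybridised to 1 two-colour array. Untreated mice were the controls. NNK, a tobacco-specific nitrosamine that gives rise to lung tumours in this strain, was given once into the peritoneum as 0.2 mL of saline at 10 uM, and lungs were taken 13 days later. SECY mice ate 15 ppm selenocystine, a selenium-containing amino acid, for 10 days, in a basal diet holding 0.35 ppm selenium. NNK+SECY mice had both, with the diet started 3 days after the injection. Cy5 (red) marked the RNA of one mouse on each array. Cy3 (green) marked a common pool made of equal parts from the Untreated mice, so the controls were measured against a pool of themselves. Dyes were never swapped, and the sources used here give no age. All mice ate the unsupplemented AIN-76 diet before the study began.

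Collagens are built of 3 chains wound into a triple helix, and each chain is coded by its own gene. Fibrillar collagens, mainly types I and III in lung, form the tensile fibres of airways, vessels and septa. Type IV collagen forms the sheet-like network of basement membranes under epithelium and endothelium. Fibril-associated collagens such as type XIV sit on the surface of fibrils, and type VI forms beaded filaments around cells.

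In Cy5, the share of spots well above background was 66.3% to 72.6% on slides 1 to 4 (Untreated and NNK arrays) and 75.0% to 79.3% on slides 5 to 8 (SECY and NNK+SECY arrays). NNK and NNK+SECY arrays were scanned on one day, and Untreated and SECY arrays on another. All 5 lung epithelial markers (Sftpc, Sftpb, Scgb1a1, Ager, Foxj1) were above background on all 16 arrays. The SECY 3 array stood apart, with a mean correlation of 0.0389 with the other arrays of its group against 0.288 to 0.394 for the other SECY arrays. Untreated 1 and Untreated 3 were also low, at 0.125 and 0.181, against 0.308 and 0.377 for Untreated 2 and Untreated 4. The slide set therefore cannot be told apart from the diet, nor the scan day from NNK, and p-values measure the spread between these mice.

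Of the 38 genes, 35 were well above background on all 4 arrays of at least 1 group and were tested, and 33 were above it on all 16 arrays. Col24a1, Col9a1 and Col9a3 did not pass and were not tested. Col10a1, a collagen of growth plate cartilage, passed only through the SECY group, being above background on 0 Untreated, 0 NNK, 4 SECY and 2 NNK+SECY arrays. Col19a1 was above background on 14 arrays. Flagged spots left Col4a2 without a value in SECY and on NNK 2, Col4a6 without one on NNK 1, and Col3a1 without one on SECY 2. No brightest probe was saturated on any array. Values below are log2(Cy5/Cy3), differences are in that log2 ratio with the standard error (SE) of the limma model, and a gene was called where its Benjamini-Hochberg adjusted p over all genes tested was under 0.05.

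Few collagen transcripts differed between groups. Col4a6 was called higher in NNK than in Untreated and lower in NNK+SECY than in NNK, and Col14a1 was called lower in NNK+SECY than in Untreated. In NNK vs Untreated 1 of 35 collagen genes was called, against 0.32% of all 21243 genes. In NNK+SECY vs Untreated it was 1 of 35, against 1.6% of all genes and 1.06% called lower. In NNK+SECY vs NNK it was 1 of 35, against 1.75% of all genes and 1.44% called lower. These comparisons share groups of mice, so their differences are not independent.

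The other comparisons gave no called collagen gene with limma, the only tool used across genes. In SECY vs Untreated 0 of 34 were called, against 0.278% of all genes and 0.0659% called lower. For NNK+SECY vs SECY the count was 0 of 34, against 0.00942% of all genes. For the interaction, the NNK effect under selenocystine minus that without it, it was 0 of 34, against 0.00471%.

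At an unadjusted p under 0.05 the counts lay mostly on the lower side. In NNK vs Untreated 1 collagen gene was higher and 0 lower, against 3.38% and 1.67% of all genes. In SECY vs Untreated 0 were higher and 3 lower (Col1a2, Col16a1, Col17a1), against 3.04% and 5.07%. NNK+SECY had 0 higher and 6 lower than Untreated (Col1a1, Col1a2, Col2a1, Col4a1, Col6a1, Col14a1), against 4.6% and 4.63%. It had 0 higher and 6 lower than NNK (Col1a1, Col1a2, Col4a1, Col4a6, Col14a1, Col23a1), against 3.66% and 6.25%. Against SECY it had 0 higher and 1 lower (Col14a1), where all genes gave 3.68% and 2.46%. The interaction had 0 above 0 and 2 below (Col4a6, Col11a1), against 1.97% and 2.64%. Of the genes on the lower side, Col1a1, Col1a2, Col4a1 and Col14a1 stood in both comparisons of NNK+SECY with mice off the diet, which share the NNK+SECY mice.

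Few collagen genes had groups that did not overlap. In NNK vs Untreated 2 were higher in every mouse (Col4a6, Col11a1) and 0 lower, against 2.79% and 1.35% of all genes. In SECY vs Untreated it was 1 higher (Col11a1) and 2 lower (Col14a1, Col17a1), against 1.89% and 2.26%. NNK+SECY had 0 higher and 2 lower than Untreated (Col14a1, Col6a1), against 3.26% and 3.61%, and 0 higher and 2 lower than NNK (Col15a1, Col4a6), against 3.33% and 5.43%. Between NNK+SECY and SECY it was 0 and 0, against 1.54% and 1.46%.

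**Figure D1:**
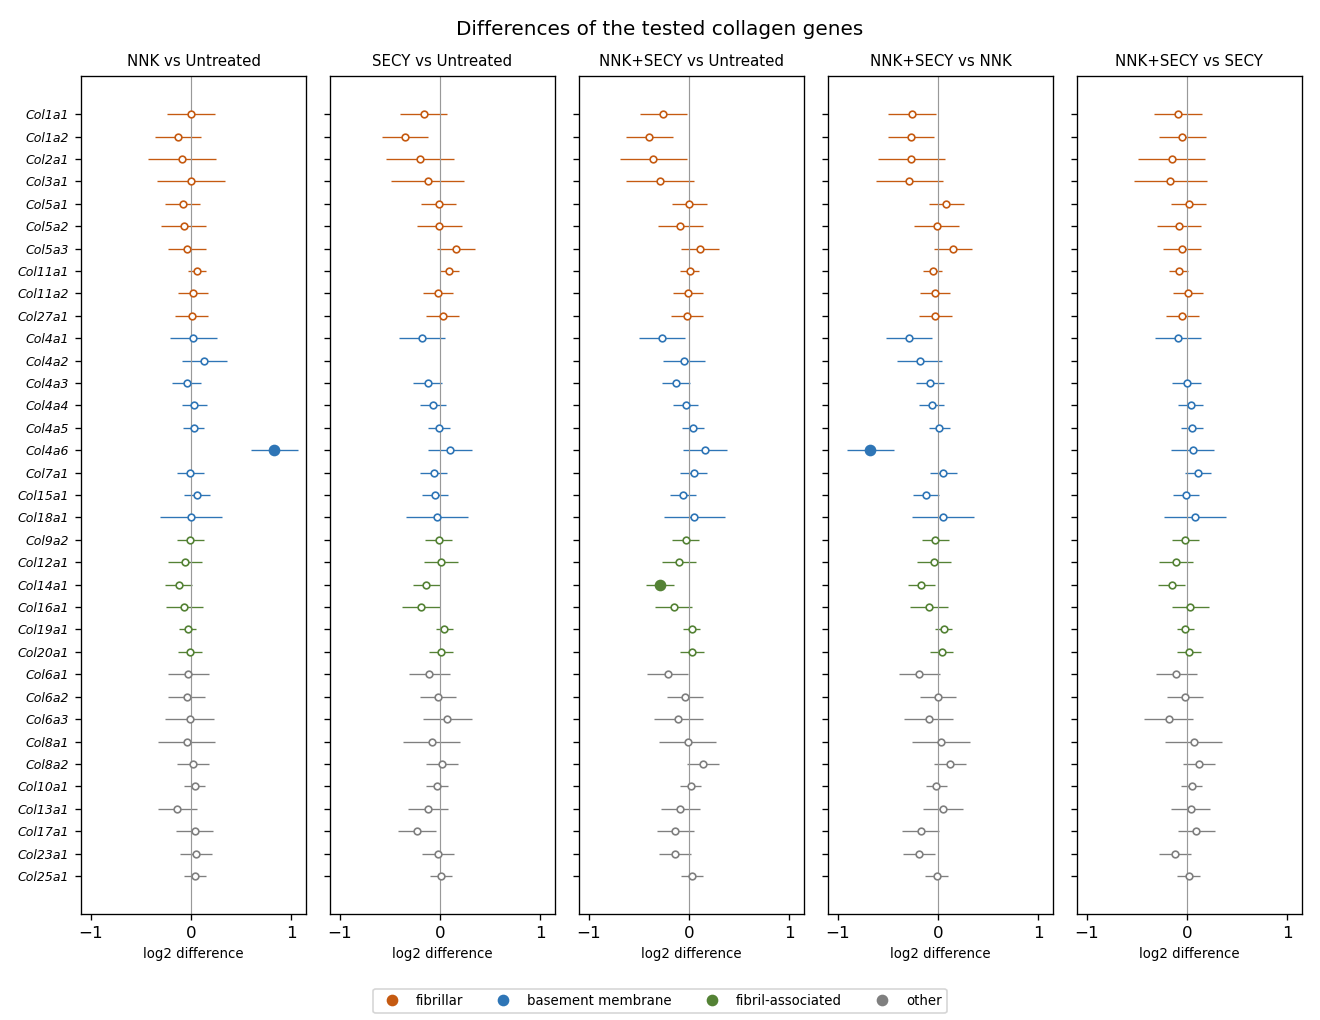
Log2 differences (horizontal axis) of the 35 tested collagen genes (rows, coloured by class) in the 5 comparisons of groups, as points with the model's 95% confidence interval; filled points passed the threshold. Col4a6 is filled in NNK vs Untreated (0.83) and NNK+SECY vs NNK (-0.67), Col14a1 in NNK+SECY vs Untreated (-0.29), and the other points are open; Col4a2 has no SECY value.

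Most collagen genes had small differences below 0 wherever the selenocystine diet was compared with no diet. From Untreated to SECY, 24 of 34 collagen genes were below 0, against 51.9% of all genes, and the median difference was -0.026 against -0.0034 for all genes. From Untreated to NNK+SECY 23 of 35 were below 0, against 49.8% of all genes, with medians of -0.042 and 4e-04. From NNK to NNK+SECY it was 24 of 35, against 51.1%, with medians of -0.042 and -0.0022. For NNK the shares over all collagen genes were nearer to those of all genes, though not in every class. From Untreated to NNK 20 of 35 were below 0, against 47.1%, with medians of -0.0061 and 0.0048, and from SECY to NNK+SECY 19 of 34, against 47.2%, with medians of -0.013 and 0.0054. In the interaction 18 of 34 were below 0, against 49.5%. In whole lung, fewer cells of a type and less RNA per cell cannot be told apart.

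By class, the fibrillar median was -0.053 in NNK+SECY vs Untreated with 7 of 10 genes below 0. The basement membrane median was -0.032 with 5 of 9 below 0, the fibril-associated median -0.067 with 4 of 6, and that of the other collagens -0.064 with 7 of 10. From NNK to NNK+SECY 8 of 10 fibrillar genes were below 0 (median -0.0421), and from Untreated to SECY 7 of 10 (-0.0191). From SECY to NNK+SECY it was 8 of 10 (-0.0635). There 3 of 8 basement membrane, 4 of 6 fibril-associated and 4 of 10 other genes were below 0. From Untreated to NNK it was 6 of 10 fibrillar, 3 of 9 basement membrane, 6 of 6 fibril-associated and 5 of 10 other genes. The class medians of single mice overlapped between groups in each class. The fibrillar medians of single mice ran from -0.15 to 0.041 in Untreated, from -0.15 to 0.089 in NNK, from -0.23 to 0.058 in SECY and from -0.24 to -0.083 in NNK+SECY.

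**Figure D2:**
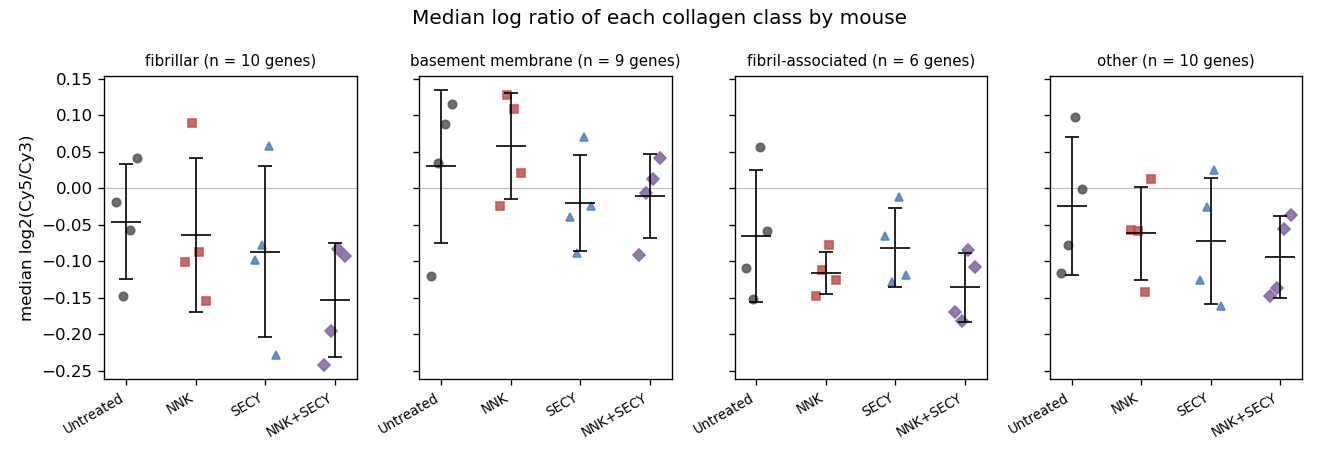
Median log2(Cy5/Cy3) over the tested genes of each collagen class (vertical axis), 1 point per mouse, by group (horizontal axis), with the group mean and SD in black. The groups overlap in every class; the lowest fibrillar median is that of NNK+SECY 1 at -0.24.

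Type I collagen, the main fibrillar collagen, is a trimer of 2 chains of Col1a1 and 1 of Col1a2 in textbook form. Col1a2 had ratios of 0.13, -0.22, 0.14 and 0.25 in the Untreated mice. In NNK mice they were -0.14, 0.17, -0.09 and -0.15. SECY mice gave -0.29, -0.40, -0.02 and -0.40, and NNK+SECY mice -0.44, -0.45, -0.15 and -0.24. Untreated 2, at -0.22, lay within the range of the mice on the diet, and the groups overlapped. Col1a2 differed by -0.40 ± 0.11 (SE, n = 4 per group) in NNK+SECY vs Untreated, 1.32-fold lower, with a limma adjusted p = 0.107, which did not pass. In SECY vs Untreated the difference was -0.35 ± 0.11, adjusted p = 0.252, and in NNK vs Untreated -0.13 ± 0.11, adjusted p = 0.9995. Without the array that stood apart, SECY 3, Col1a2 passed in NNK+SECY vs Untreated (-0.40, adjusted p = 0.0480) and gave -0.44 with adjusted p = 0.0888 in SECY vs Untreated. SECY 3 is in neither group of NNK+SECY vs Untreated, so leaving it out changed the model's spread there and not the difference. Without Untreated 2 Col1a2 passed as well in NNK+SECY vs Untreated (-0.49, adjusted p = 0.0304). It also passed there with median centring and with array weights, and in no other alternative. With the slide as a block the limma adjusted p was 0.116, and with the replicate number as a block 0.0916. The Cy5 level of its probe was 12.46 ± 0.19 (SD) in Untreated, 12.15 ± 0.05 in NNK, 12.10 ± 0.23 in SECY and 11.88 ± 0.24 in NNK+SECY, on a normalised log2 scale. A second Col1a2 probe, above background on all 16 arrays, gave -0.04 in NNK+SECY vs Untreated and -0.16 in SECY vs Untreated.

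Col1a1 had ratios of 1e-04, -0.39, -0.15 and -0.01 in Untreated and of -0.12, -0.02, -0.09 and -0.31 in NNK. They were -0.25, -0.45, 0.02 and -0.53 in SECY and -0.52, -0.49, -0.26 and -0.30 in NNK+SECY. SECY 3 was the highest of all 16 mice, and the groups overlapped. The difference was -0.26 ± 0.11 in NNK+SECY vs Untreated (adjusted p = 0.488) and -0.26 ± 0.11 in NNK+SECY vs NNK (adjusted p = 0.445), neither of which passed. In NNK+SECY vs Untreated the Cy5 level differed by -0.05 and the Cy3 level of the shared pool by 0.21. Another probe of Col1a1, above background on all arrays, gave -0.12 and -0.15 in the same comparisons.

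Col3a1 codes for the single chain of type III collagen, which is laid down with type I in fibrils. Its ratios were 0.20, -0.36, -0.31 and -0.09 in Untreated, and -0.16, 0.28, -0.25 and -0.45 in NNK. In SECY the 3 measured mice gave -0.27, 0.06 and -0.58, and NNK+SECY mice gave -0.47, -0.50, -0.24 and -0.49. Each of the first 3 groups overlapped the NNK+SECY values, and SECY 4 lay below all of them. In NNK+SECY vs Untreated Col3a1 differed by -0.29 ± 0.16 (adjusted p = 0.659), while its second probe above background on all arrays gave -0.03.

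**Figure D3:**
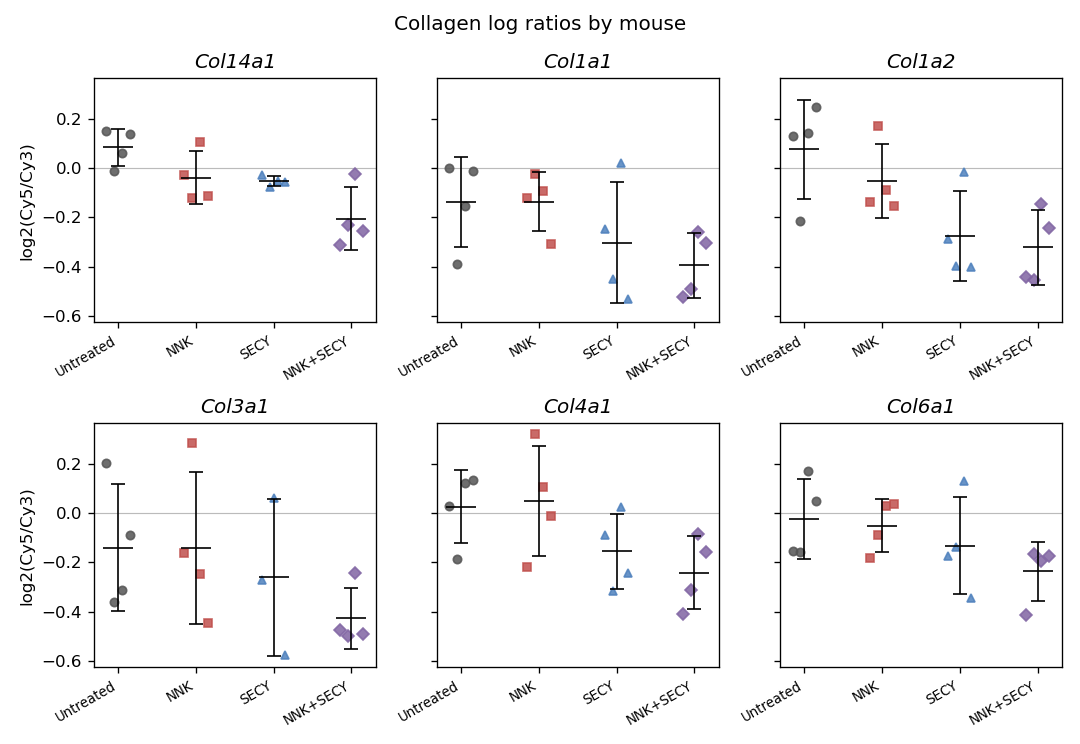
Log2(Cy5/Cy3) (vertical axis) of 6 collagen genes, 1 point per mouse, by group (horizontal axis), with the group mean and SD in black. The 4 NNK+SECY mice lie below the 4 Untreated mice for Col14a1 and Col6a1, and the groups overlap for Col1a1, Col1a2, Col3a1 and Col4a1.

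Among the remaining fibrillar collagens, Col2a1, the main collagen of cartilage, differed by -0.35 ± 0.16 in NNK+SECY vs Untreated (adjusted p = 0.499). Its NNK+SECY ratios were -0.41, -0.51, -0.09 and -0.30, and those of Untreated ran from -0.33 to 0.42, so that the groups overlapped. The Cy5 level was 9.78 in Untreated and 9.72 in NNK+SECY, and the Cy3 level of the shared pool 9.75 and 10.04. A dimmer Col2a1 probe, above background on all 16 arrays, gave 0.09 ± 0.11 in this comparison. Of 9 cartilage markers on the array, Cnmd, Matn1, Matn3 and Hapln1 were never above background, and the summed Cy5 level of all 9 ran from 1644 to 1733 in Untreated and from 1546 to 1634 in NNK+SECY. Their part in the Col2a1 result was not tested. Col11a1, a minor chain of cartilage-type fibrils, was higher in each NNK and each SECY mouse than in any Untreated mouse. The mean differences of 0.061 and 0.092 were not called. Its probe was dim, with a Cy5 level of 6.22 in Untreated against 5.90 for the untested Col24a1. The other Col11a1 probes were above background on 0 arrays. Col5a1, Col5a2, Col5a3, Col11a2 and Col27a1 differed by -0.09 to 0.11 in NNK+SECY vs Untreated.

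Type I and III transcripts varied together from mouse to mouse. Across 16 mice the ratios of Col1a1 and Col1a2 had a Pearson r of 0.90 (permutation p = 2e-05, adjusted over 8 pairs of partner chains p = 0.00016) and a Spearman rho of 0.88 (permutation p = 2e-05, adjusted p = 0.00012). Across the 15 mice with both values, Col1a1 and Col3a1 had r = 0.87 (permutation p = 8e-05, adjusted p = 0.00032) and rho = 0.91 (permutation p = 3e-05, adjusted p = 0.00012). Without the 2 mice farthest from the median of Col1a1, r was 0.91 (permutation p = 3e-05) and 0.84 (permutation p = 0.00035). With the mean of all probes of each gene r was lower, at 0.78 (permutation p = 0.00059) and 0.72 (permutation p = 0.00163). Without NNK 2 and SECY 4, the mice then farthest from the median, it was 0.70 and 0.61. The points share their arrays and the reference pool. Within each slide set and each scan day the r of Col1a1 with Col1a2 lay between 0.79 and 0.95, and that with Col3a1 between 0.79 and 0.93. With values centred on their group mean, 4 of 8 pairs passed, as with the values themselves.

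For scale, the median r of Col1a1 with 20656 other genes that had values on all arrays was 0.016. The 8 genes with the highest r, chosen after the values were seen, were Col2a1 (0.90), Col1a2 (0.90), Sparc (0.88), Mmp2 (0.88), Gata1 (0.88), Ciita (0.87), Fbln5 (0.86) and Pcolce (0.86). Sparc is a collagen-binding matricellular protein, Mmp2 a gelatin-degrading protease, Fbln5 an elastic fibre protein and Pcolce an enhancer of procollagen propeptide removal. Gata1 and Ciita, which are not matrix genes, ranked 5 and 6, above Fbln5 and Pcolce. Col2a1 correlated with Col3a1 at r = 0.95, rho = 0.93 (permutation p = 1e-05 for each, the smallest the permutations can give), while another Col2a1 probe gave r = -0.041 with Col3a1 (permutation p = 0.889) and rho = 0.24 (permutation p = 0.401). Both Col2a1 pairs were chosen after the values were seen.

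The stretches before the start sites of Col1a2 and Col3a1 are shown because both transcripts followed Col1a1 across mice. They are the 250 bases upstream of the RefSeq start (GRCm38.p6), both on the + strand, at chr6:4505368-4505617 and chr1:45311288-45311537, with matches to any of 3 motifs in capitals. The first motif, CCAAT, is known as the CCAAT box. The second, GGGCGG, is the GC box. The last, TATAAA, is a form of the TATA box. Each was searched on both strands. No match of one overlaps another here.
Col1a2: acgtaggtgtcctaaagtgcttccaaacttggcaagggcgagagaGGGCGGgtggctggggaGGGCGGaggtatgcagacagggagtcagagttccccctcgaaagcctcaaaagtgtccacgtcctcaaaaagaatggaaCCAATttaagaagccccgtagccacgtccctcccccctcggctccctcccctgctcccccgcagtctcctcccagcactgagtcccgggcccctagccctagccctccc
Col3a1: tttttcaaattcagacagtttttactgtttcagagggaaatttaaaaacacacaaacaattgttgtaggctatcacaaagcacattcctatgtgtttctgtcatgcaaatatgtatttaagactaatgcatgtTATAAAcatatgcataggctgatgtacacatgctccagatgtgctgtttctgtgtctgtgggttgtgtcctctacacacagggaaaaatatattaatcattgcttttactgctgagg
The Col1a2 stretch holds 1 CCAAT, starting 109 bases before the start site, and 2 GGGCGG, starting 205 and 188 bases before it. The Col3a1 stretch holds none of these but has 1 TATAAA, starting 117 bases before the start. G and C make up 62% of the first and 35.2% of the second. Of 32851 stretches of this length in the table, 33.8% hold CCAAT, 32.7% GGGCGG and 12.4% TATAAA on either strand. Of the 31 collagen genes matched in the table, with 34 stretches, 12, 18 and 5 do in at least 1 stretch. The shares are thus per stretch and the counts per gene. Both stretches thus differ in these letters, and a match is no evidence of a bound factor.

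Basement membrane collagens centre on type IV, whose chains are made from neighbouring gene pairs that face away from each other. Col4a1 and Col4a2 make the common network of vessels and epithelia. Col4a1 had ratios of 0.03, -0.18, 0.12 and 0.13 in Untreated, and -0.22, 0.32, 0.11 and -0.01 in NNK. It had -0.09, -0.31, 0.02 and -0.24 in SECY, and -0.41, -0.31, -0.08 and -0.16 in NNK+SECY. The NNK+SECY mice overlapped Untreated 2 and NNK 1. The difference was -0.29 ± 0.11 in NNK+SECY vs NNK (adjusted p = 0.323) and -0.27 ± 0.11 in NNK+SECY vs Untreated (adjusted p = 0.422). Its other probe, above background on all 16 arrays, gave -0.13 and -0.07. Col4a2 gave -0.05 ± 0.10 in NNK+SECY vs Untreated (adjusted p = 0.967), and its other probe, which has values in all mice, gave -0.14 ± 0.16 there and -0.31 ± 0.16 in SECY vs Untreated, neither of which passed.

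The start sites of Col4a1 and Col4a2 in RefSeq (GRCm38.p6) lie 21 bases apart on opposite strands of chromosome 8, at 11312826 and 11312805. Their ratios had r = 0.73 over the 11 mice with both values (permutation p = 0.0124, adjusted p = 0.0248) and rho = 0.69 (permutation p = 0.0225, adjusted p = 0.06). Without the 2 mice farthest from the median of Col4a1, NNK+SECY 1 and 2, r was 0.56 (exact permutation p = 0.118, n = 9). Without NNK+SECY 1 alone r was 0.61 (adjusted p = 0.128), and without NNK+SECY 2 alone 0.73. Leaving out Untreated 3, Untreated 4 or NNK 3 gave adjusted p = 0.0537, 0.0518 and 0.0552. Centred on group means, r was 0.83 (permutation p = 0.00291). It was 0.64 on slides 1 to 4 and 0.92 on the first scan day, and the other 2 batches held only 4 such mice. With the other Col4a2 probe, taken after the values were seen, r was 0.62 over 16 mice (permutation p = 0.0107) and rho 0.65 (permutation p = 0.00806).

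Col4a3 and Col4a4, chains of the alveolar and glomerular network, differed by -0.13 ± 0.07 (adjusted p = 0.613) and -0.03 ± 0.06 (adjusted p = 0.963) in NNK+SECY vs Untreated. Their ratios had r = -0.16 (permutation p = 0.559, adjusted p = 0.559) and rho = -0.097 (permutation p = 0.718, adjusted p = 0.753). The Col4a4 level of Cy5 was 9.28 ± 0.16 in Untreated and 9.71 ± 0.12 in NNK+SECY, and the Cy3 level of the pool was higher by 0.45 as well. Col4a5 gave 0.04 in that comparison, and Col4a5 with Col4a6 had r = 0.25 (permutation p = 0.374, adjusted p = 0.427) and rho = 0.44 (permutation p = 0.102, adjusted p = 0.139).

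Col4a6, a type IV chain of smooth muscle and bronchial basement membranes, had the largest differences of any collagen gene. Its ratios were -0.23, 0.14, 0.01 and 0.24 in Untreated, and 0.99, 0.84 and 0.78 in the 3 NNK mice with a value. SECY mice gave 0.16, 0.05, 0.37 and -0.02, and NNK+SECY mice gave 0.03, 0.16, 0.34 and 0.25. The NNK mice stood above all the others. The ratio rose by 0.83 ± 0.11 in NNK vs Untreated (limma adjusted p = 0.00386) and fell by 0.67 ± 0.11 in NNK+SECY vs NNK (adjusted p = 0.00268). The interaction was -0.78 ± 0.15 with adjusted p = 0.406 and was not called.

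The signal of the reference pool at the Col4a6 probe moved with that result. The Cy5 level was 9.27 ± 0.87 (SD, n = 4) in Untreated, 12.89 ± 0.20 (n = 3) in NNK, 10.55 ± 0.43 (n = 4) in SECY and 10.87 ± 0.90 (n = 4) in NNK+SECY. The Cy3 level, which comes from the same pool on every array, was 9.23 ± 0.71, 12.02 ± 0.30, 10.41 ± 0.31 and 10.68 ± 0.78 in the same order. From Untreated to NNK, Cy5 was higher by 3.62 and Cy3 by 2.79. Col4a6 was the only one of the tested collagen genes whose Cy3 group means spanned over 0.5 on the log2 scale, as those of 7.41% of all genes did. Another probe of the gene, above background on all 16 arrays, gave 0.03 ± 0.06 in NNK vs Untreated (adjusted p = 0.9997), and with all its probes averaged the difference was 0.24 and was not called (adjusted p = 0.600). Within slides 2 to 4, NNK minus Untreated ran from 0.54 to 0.85. A dimmer probe of Col2a1 gave 0.60 ± 0.12 in NNK vs Untreated (adjusted p = 0.0552 over 25576 probes), with Cy3 higher by 1.07, and -0.51 ± 0.12 in NNK+SECY vs NNK (adjusted p = 0.0447). The part of the pool's signal in these results was not tested.

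**Figure D4:**
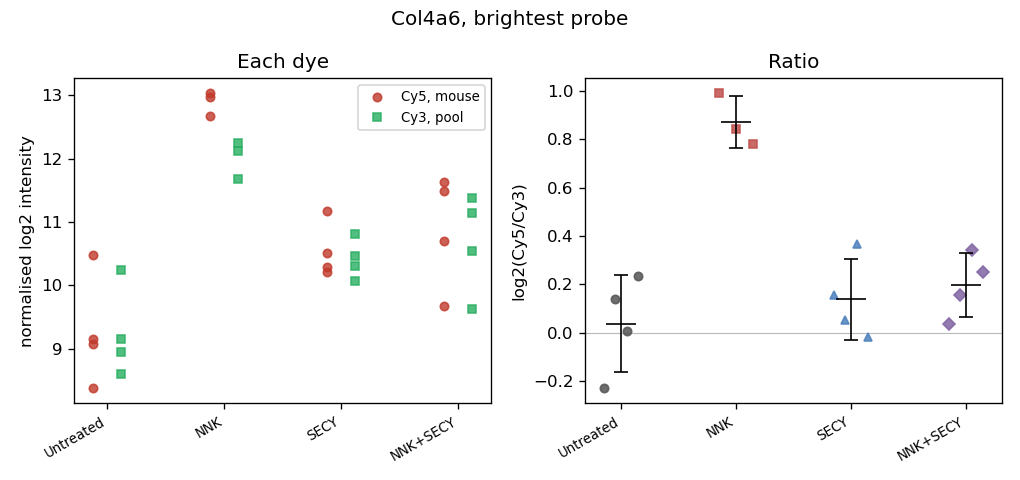
Left, normalised log2 intensity of the Col4a6 probe by group, with the mouse's RNA (Cy5) as red circles and the shared pool (Cy3) as green squares; right, the log2 ratio with group mean and SD in black. Both dyes are brightest in NNK (Cy3 mean 12.02 against 9.23 in Untreated), and the NNK ratios of 0.78 to 0.99 lie above all others.

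Col15a1 and Col18a1 code for multiplexins, collagens that link basement membranes to the tissue beneath. Each NNK+SECY value of Col15a1 (0.04, 0.02, 0.01 and -0.10) lay below each NNK value (0.05, 0.12, 0.22 and 0.07), and the difference of -0.12 ± 0.06 was not called (adjusted p = 0.552). The Col15a1 probe was dim, with a Cy5 level of 6.52 in NNK and 6.22 in NNK+SECY. Col18a1 had -0.28, -0.16, 0.60 and -0.08 in NNK+SECY, and the mean there was 0.017 ± 0.40 (SD). Its difference from Untreated was 0.05 ± 0.15 (adjusted p = 0.976). Col7a1, the anchoring fibril collagen, gave 0.05 in NNK+SECY vs Untreated.

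Col14a1, a fibril-associated collagen that binds fibrils of type I, was the collagen gene called lower with both treatments. Untreated ratios were 0.15, -0.01, 0.06 and 0.14, and NNK ratios -0.03, -0.12, 0.11 and -0.11. SECY ratios were -0.03, -0.08, -0.05 and -0.06, and NNK+SECY ratios -0.31, -0.23, -0.02 and -0.26. All 4 NNK+SECY and all 4 SECY mice lay below every Untreated mouse, with NNK+SECY 3 nearest to them. In NNK+SECY vs Untreated Col14a1 fell by 0.29 ± 0.065 (SE, n = 4 per group), a 1.22-fold lower ratio (limma adjusted p = 0.0322), with Cy5 lower (-0.23) and Cy3 little moved (0.06). The difference was -0.14 ± 0.065 in SECY vs Untreated (adjusted p = 0.617), -0.12 ± 0.065 in NNK vs Untreated (adjusted p = 0.9995), -0.17 ± 0.065 in NNK+SECY vs NNK (adjusted p = 0.351) and -0.15 ± 0.065 in NNK+SECY vs SECY (adjusted p = 0.791), none of which passed. The interaction was -0.03 ± 0.09 (adjusted p = 0.9995).

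The Col14a1 call was lost in 10 of 28 alternatives, with adjusted p over all alternatives between 0.0104 and 0.117 and the difference always below 0 (-0.37 to -0.16). Leaving out Untreated 1, 3 or 4, or NNK+SECY 1, 2 or 4, gave adjusted p = 0.101, 0.0749, 0.110, 0.117, 0.0914 and 0.108. With the authors' own log ratio from the scanner files it was 0.0925. Untreated and NNK+SECY also differed in slide set and scan day, and batch and group cannot be told apart there. Another Col14a1 probe, above background on only 4 arrays, gave -0.03.

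In the same class, Col16a1 gave -0.19 ± 0.09 in SECY vs Untreated (adjusted p = 0.612) and -0.15 ± 0.09 in NNK+SECY vs Untreated (adjusted p = 0.679). Col19a1 gave 0.04 ± 0.04 (adjusted p = 0.884) and 0.03 ± 0.04 (adjusted p = 0.947). Col12a1, a relative of type XIV, differed by -0.10 in NNK+SECY vs Untreated, and Col20a1 and Col9a2 by 0.03 and -0.03. Col14a1 was also set against the type I chains, in pairs chosen after the values were seen. Its r with Col1a1 was 0.64 (permutation p = 0.00819) and rho 0.57 (permutation p = 0.0221), and with values centred on group means r was 0.48 (permutation p = 0.0599) and rho 0.57 (permutation p = 0.0233). With Col1a2 r was 0.66 (permutation p = 0.00537) and rho 0.61 (permutation p = 0.0132), and with centred values r was 0.37 (permutation p = 0.161) and rho 0.36 (permutation p = 0.166), which did not pass.

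Of the other collagens, type VI is a trimer of different chains. Col6a1 ratios were -0.16, -0.16, 0.17 and 0.05 in Untreated, and -0.18, -0.09, 0.03 and 0.04 in NNK. They were -0.17, -0.14, 0.13 and -0.35 in SECY, and -0.42, -0.17, -0.19 and -0.17 in NNK+SECY. The NNK+SECY mice lay just below the Untreated ones, with a difference of -0.21 ± 0.10 (adjusted p = 0.512), which did not pass. Col6a2 and Col6a3 differed by -0.04 and -0.11. A dimmer Col6a2 probe, above background on all 16 arrays, gave -0.23 ± 0.09 (adjusted p = 0.380 over 25576 probes), so that the 2 probes of the gene differed.

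Col6a1 and Col6a2 had r = 0.65 (permutation p = 0.0061, adjusted p = 0.0163) and rho = 0.53 (permutation p = 0.0390, adjusted p = 0.0781). Without Untreated 3 and SECY 3 r was 0.40 (permutation p = 0.159), and the adjusted p was 0.0535 without Untreated 3 and 0.0607 without SECY 3. With the mean of all probes of each gene r was 0.87 (permutation p = 3e-05), and 0.78 without the same mice. Centred on group means, r was 0.73 (permutation p = 0.0012). It was 0.54 on slides 1 to 4, 0.82 on slides 5 to 8, -0.021 on the first scan day and 0.92 on the second, so that the first scan day did not show it. Col6a1 with Col6a3 (r = 0.47, permutation p = 0.0665, adjusted p = 0.106; rho = 0.42, permutation p = 0.104, adjusted p = 0.139) and Col5a1 with Col5a2 (r = 0.26, permutation p = 0.355, adjusted p = 0.427; rho = 0.085, permutation p = 0.753, adjusted p = 0.753) did not pass. In all, 4 of 8 partner pairs passed with r, and 2 without Untreated 3. Of 20656 other genes with values on all arrays, 0.00968% had an r with Col1a1 as high as that of Col1a2. The share was 0.029% for Col1a1 with Col3a1 and 2.19% for Col6a1 with Col6a2. For Col4a1 with Col4a2, whose own r rests on 11 mice, it was 0.436%. For the pairs that did not pass it ran from 10.8% to 68.4%.

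**Figure D5:**
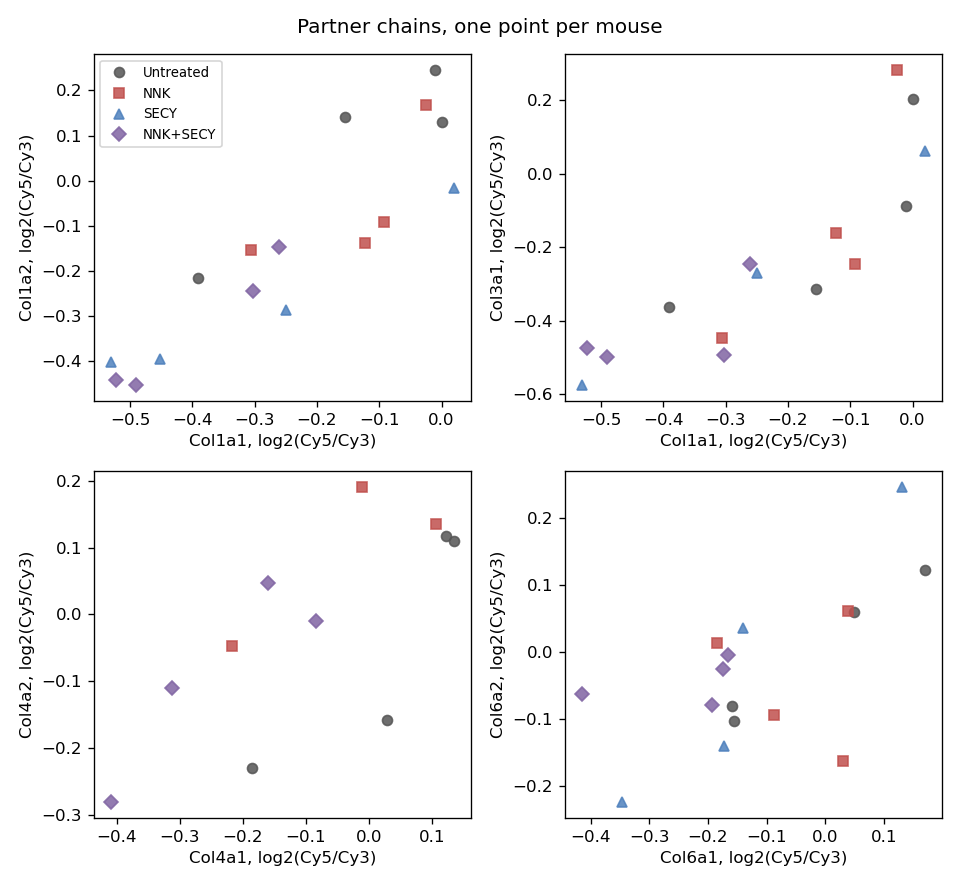
Log2(Cy5/Cy3) of 4 pairs of partner chains, 1 point per mouse, marked by group. Col1a1 runs close to a line with Col1a2 (r = 0.90) and Col3a1 (r = 0.87), and the points of Col4a1 with Col4a2 (r = 0.73) and Col6a1 with Col6a2 (r = 0.65) scatter more.

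Transmembrane collagens had no called member. Col17a1, the hemidesmosome collagen of basal epithelial cells, had -0.30, -0.25, -0.20 and -0.27 in SECY, below each Untreated mouse (-0.16, -0.02, 0.18 and -0.11). The difference of -0.23 ± 0.09 had adjusted p = 0.448. Col23a1 gave -0.19 ± 0.08 in NNK+SECY vs NNK (adjusted p = 0.354), while its other probes, above background on all 16 arrays, gave 0.04 and -0.04. Col13a1 and Col25a1 gave -0.09 and 0.03 in NNK+SECY vs Untreated, and the short-chain collagens Col8a1, Col8a2 and Col10a1 gave -0.01, 0.14 and 0.02. A further 5 collagen genes, Col22a1, Col26a1, Col28a1, Col6a4 and Col6a6, carry other names in the files, and Col22a1 and Col6a4 were tested with no call.

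Proteins that fold, cut, bind or degrade collagen had 1 called member, where 0.00471% to 1.75% of all genes were called per comparison. It was Pcolce2, an enhancer of propeptide removal, which fell by 0.33 ± 0.08 in NNK+SECY vs NNK (limma adjusted p = 0.0395) and gave -0.29 ± 0.08 in NNK+SECY vs Untreated (adjusted p = 0.0966). Its relative Pcolce gave -0.36 ± 0.11 in NNK+SECY vs NNK (adjusted p = 0.168). Pcolce2 was the 1 of 11 tested genes of propeptide cleavage and cross-linking to be called. In NNK+SECY vs NNK 1.75% of all genes were called and 1.44% called lower. There 8 of 11 were below 0, against 51.1% of all genes. Of 19 chain folding and modification genes 0 were called with limma in any comparison, and at most 1 was higher and 2 lower at an unadjusted p under 0.05, where 1.97% to 4.6% of all genes were higher and 1.67% to 6.25% lower. The smallest p values were those of P3h3, a prolyl 3-hydroxylase, at -0.24 ± 0.09 in NNK+SECY vs NNK (adjusted p = 0.291) and Crtap, a partner of prolyl 3-hydroxylases, at -0.13 ± 0.05 in NNK+SECY vs SECY (adjusted p = 0.791).

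Of 14 fibril-binding proteins 0 were called, and 12 were below 0 in each of SECY vs Untreated, NNK+SECY vs Untreated and NNK+SECY vs NNK, with medians of -0.14, -0.15 and -0.22, where 51.9%, 49.8% and 51.1% of all genes were below 0. Sparc gave -0.33 ± 0.09 in NNK+SECY vs NNK (adjusted p = 0.110), where Cy5 moved by -0.08 and Cy3 by 0.24. Prelp, a leucine-rich repeat proteoglycan, gave -0.32 ± 0.09 in NNK+SECY vs Untreated (adjusted p = 0.119). At an unadjusted p under 0.05 these comparisons had 3, 4 and 3 lower members and 0 higher, against 5.07%, 4.63% and 6.25% of all genes lower. None of the 10 tested collagen receptors, the 11 degrading enzymes and inhibitors or the 18 TGF-beta signalling genes was called. Of the TGF-beta genes 15 of 18 were below 0 in SECY vs Untreated (median -0.071), against 51.9% of all genes, and 4 were lower at an unadjusted p under 0.05, against 5.07%, while the other 2 lists had at most 1 member past that limit in either direction of a comparison. The smallest p values belonged to Itga2 (-0.13 ± 0.05 in NNK+SECY vs Untreated, adjusted p = 0.419), Lair1 (-0.23 ± 0.13 in SECY vs Untreated, adjusted p = 0.723), Ctsb (-0.16 ± 0.06 in SECY vs Untreated, adjusted p = 0.328), Mmp2 (-0.32 ± 0.11 in NNK+SECY vs NNK, adjusted p = 0.262), Smad7 (-0.32 ± 0.10 in SECY vs Untreated, adjusted p = 0.228) and Ltbp1 (-0.18 ± 0.07 in SECY vs Untreated, adjusted p = 0.366).

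Markers of collagen-making cells gave these values beside the collagen results. Of 14 fibroblast markers 1 was called, Mfap4, a microfibril-associated protein. It fell by 0.73 ± 0.17 in NNK+SECY vs Untreated (limma adjusted p = 0.0473) and by 0.87 ± 0.17 in NNK+SECY vs NNK (adjusted p = 0.0126). Of all genes 1.6% and 1.75% were called in these comparisons, and the list's medians were -0.017 and -0.028. The summed Cy5 level of the 14 ran from 87420 to 97070 in Untreated, 85210 to 96250 in NNK, 82810 to 89020 in SECY and 84050 to 91250 in NNK+SECY. Of 10 smooth muscle and pericyte markers 0 were called and all 10 were below 0 in NNK+SECY vs NNK (median -0.13), against 51.1% of all genes, with summed levels of 13340 to 13680 in NNK and 11660 to 13750 in NNK+SECY. Of 7 tested mesothelial markers 0 were called and all 7 were below 0 there (median -0.18). Summed over the 8 mesothelial markers on the array, levels were 4161 to 4746 in NNK and 3448 to 4187 in NNK+SECY. In NNK vs Untreated all 7 were above 0 (median 0.058), where 47.1% of all genes were below 0, and in NNK+SECY vs Untreated 6 of 7 were below 0 (median -0.056), against 49.8%. The Untreated sums were 4306 to 4592. Of 7 tested skeletal muscle markers 0 were called, and all 7 were above 0 in NNK+SECY vs Untreated (median 0.32), where 49.8% of all genes were below 0. Summed over the 8 skeletal muscle markers on the array, levels were 1061 to 1903 in Untreated and 966.6 to 2715 in NNK+SECY. Endothelial, alveolar type 1 and alveolar type 2 markers, 8 each, had 0 called in every comparison. At an unadjusted p under 0.05 at most 2 members of any of these lists were past the limit in either direction of a comparison. The part of these cells in the collagen results was not tested.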

How the data were processed

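Lung RNA of 16 mice was measured on 16 two-colour arrays (Cy5 mouse, Cy3 pool). Per the file headers, the authors extracted spots with Feature Extraction 8.1.1.1. The deposited scanner files hold spot and background intensity on a linear scale and, per spot, the log10 of red over green. The authors' deposited value table holds log2 ratios equal to these within 0.005, and it served as an alternative. For the array annotation, no build was stated in those sources.

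Mean signals were corrected with limma's normexp (offset 50) and normalised within arrays by loess, with control and flagged spots at weight 0 (R 4.3.3, limma 3.58.1). Replicate spots were averaged, and each gene was read from the probe with the highest mean intensity over 16 arrays. Levels per dye were taken after loess and Aquantile scaling. Of 27705 gene names, 21248 passed the filter. Limma fitted a mean per group over all 16 arrays, with Benjamini-Hochberg adjustment over all genes tested and a threshold of 0.05. Partner chains were correlated over mice with 100000 permutations, two-sided. The fit was tested on simulated data. The number of arrays limits the precision.

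Named genes are the called collagens, up to 3 per class with the smallest p, a fixed list of 11, and of each pathway list the called members and 2 with the smallest p. Genes outside this rule are given as values. Members, lists and tests were chosen with earlier results of these data known. Alternatives covered signal, normalisation, background, filter, probe choice, array weights, slide and replicate block, and each array left out. Same-numbered arrays shared a slide between Untreated and NNK and between SECY and NNK+SECY. Their deviations from the group mean correlated at -0.013 to 0.46 in the first case and -0.12 to 0.32 in the second. The highest correlation was with the slide partner for 3 of 4 NNK and 1 of 4 NNK+SECY arrays. Over all 5 comparisons, including arrays on different slides, correlations ran from -0.12 to 0.50. The main fit did not treat these arrays as pairs, and the slide as a block was an alternative. No 2 arrays were duplicates (highest correlation 0.6965).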

Additional observations from a re-analysis of the deposited data

Results flagged for a closer look

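Of 64 groups of 4 mice looked at among the named collagen genes, 3 held a mouse far from the other 3 by Dixon's test, which chance gives in about 1 of 20 groups. Col15a1 was 0.172 in SECY 3 against -0.0811 to -0.0387 in the other SECY mice. Col3a1 was -0.2447 in NNK+SECY 3 against -0.499 to -0.473, and Col6a1 was -0.4152 in NNK+SECY 1 against -0.1939 to -0.166. Groups with a missing value were not looked at.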

How the results depend on the processing

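Across alternatives, 2727 of 2744 values of named collagen genes kept their side of the threshold, 12 lost and 5 gained a call. Most of these values were of results not called in the main fit, so this count says little about the calls. All 12 losses were of Col14a1 or Col4a6, the called genes, and all 5 gains were of Col1a2. Of called values 0 changed sign. Of values not called 101 did, with adjusted p of 0.758 or more, such as Col1a2 in NNK+SECY vs SECY (-0.046, and 0.041 without SECY 3). The count of called genes in NNK vs Untreated and in NNK+SECY vs NNK, 1 each (Col4a6), became 0 with the mean of all probes (0.24, adjusted p = 0.600, and -0.18, adjusted p = 0.441, for Col4a6 with limma) and 0 among genes with a steady reference, an alternative chosen after seeing the data that leaves Col4a6 out. In SECY vs Untreated the count of 0 became 1 with array weights (Col1a2). In NNK+SECY vs Untreated the count of 1 became 0 with the Feature Extraction log ratio, the deposited value table, only the arrays compared and the mean of all probes, and 2 (Col14a1, Col1a2) with median centring and array weights. The cause was not tested. Leaving out 1 array gave 0 to 2 there, 1 to 1 in NNK vs Untreated and NNK+SECY vs NNK, 0 to 0 elsewhere, and 2 to 5 partner pairs in place of 4. With the replicate number as a block, counts stayed at 1, 0, 1, 1, 0 and 0 in the 5 comparisons and the interaction, and the adjusted p of Col14a1 was 0.0254. The interaction could not be fitted on only the arrays compared. Dim probes (such as those of Col10a1, Col11a1, Col15a1 and Col19a1) and 5 missing Col4a2 values limit what could be seen.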
